A study of Mus musculus with 44 samples.

Results

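RNA of GFP-positive cells sorted from mineralising mouse osteoblast cultures on day 17 was set against RNA of the whole, unsorted culture of the same experiment. The 6 arrays compared, out of 44 in the series, are those of array type A from Exp100, Exp105 and Exp106, 1 GFP-positive and 1 unsorted array from each, paired by the experiment name in the sample titles. All probe sets of array A were considered, and the 7455 of 12422 that passed a filter on signal were tested. The 3 GFP-negative arrays of the same experiments show where the unsorted level lies between the sorted fractions, and the GFP-positive and unsorted arrays of day 7 (Exp99, Exp101 and Exp103) serve as a second time of the same comparison.

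The cells were primary calvarial osteoblast cultures, grown from the skull caps of newborn mice labelled as 7 days old. Day 17 cultures carried the transgene pOBCol2.3GFP, and from day 7 on their medium held ascorbic acid and beta-glycerophosphate, which let osteoblasts deposit and mineralise matrix. Day 7 cultures carried pOBCol3.6GFP and had no additions, so day, transgene and additions cannot be told apart in any comparison of the days. In both transgenes a fragment of the rat type I collagen promoter drives green fluorescent protein (GFP). The labels name neither the strain nor how many animals were pooled, and nothing beyond the experiment names says that replicates came from separate cultures, so the p-values describe the spread of these arrays, which may be technical. The labels also do not say whether the unsorted cells were detached and passed through the sorter, so effects of handling and of cell makeup cannot be told apart.

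As background, a calvarial culture is a mixture: osteoblasts at several stages grow beside fibroblast-like mesenchymal cells, contractile cells with smooth muscle genes, and macrophages carried over from the bone. The shorter 2.3 kb collagen promoter fragment is active in differentiated osteoblasts, cells that secrete type I collagen in bulk and later turn into osteocytes. Such secretion loads the endoplasmic reticulum with chaperones, translocation channels and transport vesicles. In bulk RNA, fewer cells of a type and less of a transcript per cell cannot be told apart.

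Array A holds 12422 probe sets, of which 10833 name 1 gene, and the 6 arrays had trimmed mean intensities between 1069 and 1766. Levels below are intensities after quantile normalisation, and differences are on the scale of log2(normalised intensity + 32), GFP-positive minus unsorted. The arrays of Exp106 stood apart from those of Exp100 and Exp105, with a mean correlation of 0.849 with them against 0.945 among the 6 arrays of those experiments. The summed level of 5 osteoblast markers (Col1a1, Ibsp, Alpl, Phex, Dmp1) ranged from 210600 to 262044 in GFP-positive samples. It ranged from 152740 to 172706 in GFP-negative samples and from 208091 to 231485 in unsorted ones. Col1a1 makes up most of each sum, and its normalised value is set by rank at the top of the scale. All 5 endothelial markers (Pecam1, Cdh5, Kdr, Tie1, Tek) lay below the array median on all 3 unsorted arrays. On all 3 GFP-positive arrays 4 of them did, Kdr being the exception. Their summed level ranged from 889 to 1109 in GFP-positive samples and from 383 to 909 in unsorted ones. GFP itself was not analysed here.

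GFP-positive cells had more of the secretory and respiratory machinery than the unsorted culture, and much less of macrophage, mesenchymal matrix and contractile genes. Some bone matrix and mineralisation genes rose, while Ibsp, Dmp1 and Alpl did not pass. For 14 of 27 respiratory genes the GFP-negative fraction lay above the unsorted culture as well, in all 3 experiments. Of 7455 probe sets tested, 1724 (23.1%) passed limma's test at a Benjamini-Hochberg adjusted p under 0.05, with 839 (11.3%) up and 885 (11.9%) down in GFP-positive cells, covering 1451 genes. The falls were the larger changes: of those called with a change of at least 2-fold, 231 were higher and 530 lower. On the deposited scale, without quantile normalisation, the median difference of all tested probe sets moved to -0.32 and the split became 274 higher and 1370 lower, so directions below are relative to the bulk of the array. GFP-positive cells set against GFP-negative cells gave 405 probe sets higher (5.43%) and 564 lower (7.57%).

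**Figure D1:**
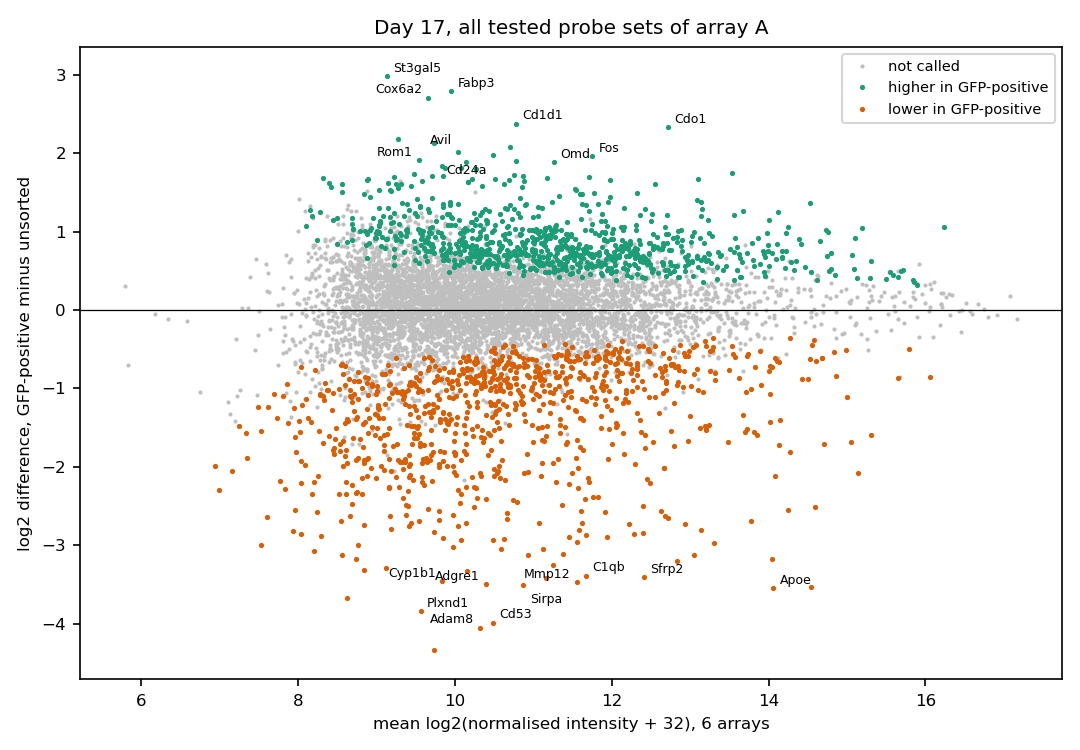
Each point is 1 of the 7455 tested probe sets, with the mean log2(normalised intensity + 32) of the 6 arrays on the x axis and the log2 difference, GFP-positive minus unsorted, on the y axis. Green points (839) passed higher and orange points (885) passed lower at an adjusted p under 0.05, and the 10 named rises reach 2.99 while the 10 named falls reach -4.05.

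The gene with the largest rise was St3gal5, which encodes the sialyltransferase that makes the ganglioside GM3. It read 2179, 1751 and 977 in GFP-positive cells of Exp100, Exp105 and Exp106, 164, 190 and 169 in GFP-negative cells, and 172, 111 and 240 in the unsorted cultures. All 3 GFP-positive arrays lay above all 6 others, and the difference from unsorted was 2.99 ± 0.38 (limma adjusted p = 0.000216), or 7.93-fold. Here and below, ± is the standard error of limma's fit, with a spread estimated over all 18 arrays. It is not the spread of the 3 pairs, which for St3gal5 differed by 3.43, 3.64 and 1.89. Its probe set is of a kind that can share sequence with related transcripts. Fabp3, a fatty acid carrier best known from heart and muscle, read 4685, 4730 and 748 in GFP-positive cells, 593, 978 and 285 in GFP-negative cells, and 325, 993 and 113 in unsorted cultures. The GFP-positive array of Exp106 overlapped the unsorted range, but within each experiment GFP-positive was higher (2.79 ± 0.30, adjusted p = 6.83e-05).

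Cox6a2, the heart and muscle form of a cytochrome c oxidase subunit, read 1058, 2426 and 3272 in GFP-positive cells, 145, 332 and 254 in GFP-negative cells, and 142, 263 and 585 in unsorted cultures. The groups did not overlap (2.71 ± 0.28, adjusted p = 4.53e-05). Cd1d1, a molecule that presents lipid antigens, read 5096, 4794 and 2541 in GFP-positive cells, 697, 910 and 513 in GFP-negative cells, and 798, 935 and 534 in unsorted cultures, so the unsorted level was close to that of GFP-negative cells (2.38 ± 0.22, adjusted p = 2.27e-05). Cdo1, cysteine dioxygenase, the enzyme that opens cysteine breakdown to taurine and sulphate, read 26848, 29799 and 4278 in GFP-positive cells, 2865, 5902 and 370 in GFP-negative cells, and 4693, 6382 and 852 in unsorted cultures. The Exp106 arrays were low in every fraction, and each pair rose by a similar amount (2.34 ± 0.26, adjusted p = 8.2e-05).

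Further rises were Avil (2.01 ± 0.35), an actin-bundling protein of the villin family, Cd24a (1.98 ± 0.36), a mucin-like surface protein, and Rom1 (1.91 ± 0.58), a membrane protein known from photoreceptors. The Cd24a pairs differed by 2.54, 2.96 and 0.44, and its call was lost with only the 2 groups compared (limma adjusted p = 0.0582). Rom1 read 2370, 1970 and 588 in GFP-positive cells against 301, 331 and 432 in unsorted cultures. Its call was lost without Exp100 (1.44, adjusted p = 0.245) and without Exp105 (1.64, adjusted p = 0.215).

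Bone matrix and mineralisation genes rose only in part. Of 33 listed genes 18 are on the array, 16 were tested, 5 were higher, 2 were lower, and the median difference was 0.52, beside 11.3% higher, 11.9% lower and a median of 0.05 over all tested probe sets. Against GFP-negative cells the median of the same genes was 0.71, with 8 higher and 1 lower. Bglap, Spp1, Runx2 and Sp7 are not analysed here.

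Ibsp encodes bone sialoprotein, a mineral-binding matrix protein of osteoblasts. It read 57736, 75258 and 100737 in GFP-positive cells, 12765, 26668 and 11910 in GFP-negative cells, and 37866, 56969 and 59869 in unsorted cultures. GFP-positive was the higher of each pair, yet the difference of 0.59 ± 0.28 did not pass (adjusted p = 0.159), while that from GFP-negative cells was 2.25 ± 0.28 (adjusted p = 0.000145). With every array scaled to a common trimmed mean in place of quantile normalisation, the difference from unsorted was 1.08 (adjusted p = 0.0179). Another tested probe set of Ibsp differed by only 0.12 after quantile normalisation. Dmp1, a matrix protein of late osteoblasts and osteocytes, read 3768, 8758 and 635 in GFP-positive cells, 306, 845 and 177 in GFP-negative cells, and 6615, 4312 and 226 in unsorted cultures. GFP-positive was lower than unsorted in Exp100 and higher in the other experiments, a difference of 0.53 ± 0.56 (adjusted p = 0.548).

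Alpl, the tissue-nonspecific alkaline phosphatase that frees phosphate for mineral, read 12048, 10901 and 6623 in GFP-positive cells, 6682, 8716 and 4026 in GFP-negative cells, and 9534, 15991 and 4832 in unsorted cultures. The ranges overlapped (0.08 ± 0.21, adjusted p = 0.821). Phex, a peptidase whose loss causes phosphate wasting, was too low to be tested. It read 708, 1756 and 219 in GFP-positive cells, 55, 137 and 286 in GFP-negative cells, and 245, 384 and 72 in unsorted cultures, with GFP-positive above unsorted in each pair.

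The genes of this list that did pass were mostly others. Omd encodes osteomodulin, a leucine-rich proteoglycan of bone matrix that binds hydroxyapatite. It read 8153, 7638 and 1639 in GFP-positive cells, 2402, 3835 and 746 in GFP-negative cells, and 1167, 2250 and 733 in unsorted cultures (1.88 ± 0.34, adjusted p = 0.00173). Both sorted fractions lay above the unsorted culture in each experiment. Cpe, carboxypeptidase E, which trims prohormones, read 11767, 19764 and 16260 in GFP-positive cells, 2289, 5357 and 2063 in GFP-negative cells, and 5011, 8839 and 2593 in unsorted cultures. Here the unsorted level lay between the fractions in all experiments (1.67 ± 0.29, adjusted p = 0.00159). The Cpe probe set can share sequence with relatives, and another tested one differed by 1.38.

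Ptprz1, a receptor-type phosphatase of osteoblasts and glia, had the widest gap between the sorted fractions among the tested genes of this list. It read 5922, 9327 and 6611 in GFP-positive cells, 166, 554 and 475 in GFP-negative cells, and 1390, 5613 and 1431 in unsorted cultures. GFP-positive exceeded unsorted by 1.66 ± 0.40 (adjusted p = 0.00895) and GFP-negative by 4.21 ± 0.40 (adjusted p = 1.31e-05). The first call was lost without Exp100 (1.46, adjusted p = 0.105) and without Exp106 (1.40, adjusted p = 0.0507). Tnfrsf11b, the decoy receptor osteoprotegerin that blocks osteoclast formation, rose by 1.02 ± 0.17 (adjusted p = 0.00125), and Pth1r, the parathyroid hormone receptor, rose by 0.97 ± 0.25 (adjusted p = 0.0138). Slc20a1, a sodium-phosphate transporter, and Cdh11, a cadherin of mesenchymal cells, differed by -0.75 ± 0.18 and -0.71 ± 0.19. Those 2 falls were lost without Exp100, where 0 members of the list fell and 3 rose.

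**Figure D2:**
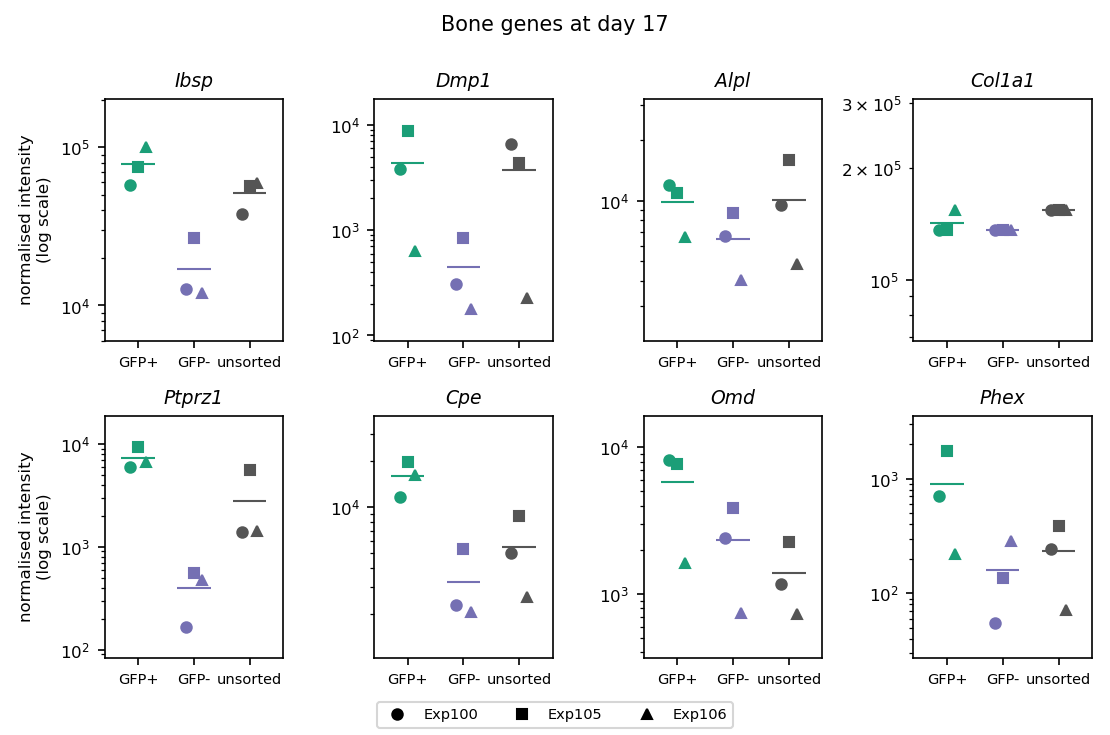
Normalised intensity on a log axis of 8 bone genes in GFP-positive, GFP-negative and unsorted samples of day 17, with 1 symbol per experiment and a line at the mean of 3. Ptprz1 and Cpe separate the GFP-positive from the GFP-negative arrays with unsorted in between, Omd is lowest in unsorted samples, and Col1a1 takes few distinct values because normalisation assigns them by rank at the top of the scale.

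Type I collagen itself did not pass. The deposited intensities of Col1a1 were 149806, 120207 and 223718 in GFP-positive cells, 116179, 126926 and 195597 in GFP-negative cells, and 141195, 141770 and 292811 in unsorted cultures, so the fractions overlapped before any normalisation. After it the difference was -0.12 ± 0.25 for Col1a1 (adjusted p = 0.781) and -0.07 ± 0.22 for Col1a2 (adjusted p = 0.859). Both lie at the upper end of the intensity scale, where normalised values are set by rank alone, and with a common trimmed mean the signs were the opposite (0.12 and 0.25). Among 15 tested genes of collagen and its assembly 4 rose and 0 fell, with a median of 0.18. These stand beside 11.3% higher and 11.9% lower over all tested probe sets. P4ha1, a catalytic subunit of prolyl 4-hydroxylase, rose by 1.15 ± 0.22 (adjusted p = 0.00273), reading 41601, 32266 and 11005 in GFP-positive cells against 13275, 23437 and 4311 in unsorted cultures. Ppib, the prolyl isomerase cyclophilin B, rose by 0.76 ± 0.13 (adjusted p = 0.00112). Sec23a, a coat protein of the vesicles that carry procollagen, rose by 0.77 ± 0.22 (adjusted p = 0.0204) and lost its call without Exp100 (adjusted p = 0.154) and without Exp105 (adjusted p = 0.185). The remaining one was P4hb, the partner subunit of prolyl 4-hydroxylase (0.51 ± 0.16). The count of 4 became 0 in the fit without the experiment block, and 2 higher with 1 lower on the deposited scale.

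Genes of the endoplasmic reticulum and of secretion were higher more broadly. Of 29 tested, 17 rose and 0 fell, beside 11.3% higher and 11.9% lower over all tested probe sets. The median of 0.61 was 0.83, 0.72 and 0.52 in Exp100, Exp105 and Exp106. Against GFP-negative cells 14 of the 29 rose, with a median of 0.67. Sec13, a component of the outer coat of transport vesicles, read 23170, 20295 and 5925 in GFP-positive cells, 9250, 10624 and 5244 in GFP-negative cells, and 8089, 6368 and 2864 in unsorted cultures (1.41 ± 0.18, adjusted p = 0.000193). GFP-positive was the highest of the 3 samples in every experiment. Dnajc3, a chaperone of the reticulum lumen that also restrains the kinase PERK, rose by 1.09 ± 0.19, and Sec61b, a subunit of the translocation channel, by 1.07 ± 0.18 (adjusted p = 0.00159 and 0.00111). The signal peptidase subunit Spcs2 (0.89), the signal recognition particle subunit Srp9 (0.90), the cargo receptor Lman1 (0.87) and the coat protein Copb2 (0.98) rose as well.

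Genes of the unfolded protein response itself were mixed. Hspa5, the luminal chaperone BiP, differed by 0.34 ± 0.19 (adjusted p = 0.222), with 27233, 25929 and 45935 in GFP-positive cells and 16628, 26668 and 36133 in unsorted cultures, which overlap. Hsp90b1, the chaperone GRP94, rose by 0.61 ± 0.14 (adjusted p = 0.00595), and Xbp1, a transcription factor of the response, by 0.71 ± 0.22 (adjusted p = 0.0349). Ddit3, a death-linked factor of the same response, differed by -1.17 ± 0.62 (adjusted p = 0.196). On the deposited scale 10 of the 29 rose and without Exp100 9 rose, with 0 falls in either.

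The promoters of these chaperones can be read beside the values, since the response acts through a known sequence, the endoplasmic reticulum stress element, CCAAT and CCACG with 9 free bases between them. RefSeq promoters (GRCm38.p6, 250 bases before to 50 after the start) were found for 23 of the 29 tested genes. The motif, on either strand, was in 5 of them, Hspa5, Hsp90b1, Canx, Pdia6 and Dnajc3, and in 37 of 27025 genes with a promoter (0.137%). It was in 2 of 12 promoters of genes that rose and in 3 of 11 of genes that did not pass. The following 3 are shown because Hsp90b1 and Dnajc3 rose while Hspa5 did not pass, with the motif in capitals. Hsp90b1 (chr10:86705395-86705694, minus strand) holds it in both orientations, Dnajc3 (chr14:118937682-118937981, plus strand) and Hspa5 (chr2:34771840-34772139, plus strand) once.
Hsp90b1: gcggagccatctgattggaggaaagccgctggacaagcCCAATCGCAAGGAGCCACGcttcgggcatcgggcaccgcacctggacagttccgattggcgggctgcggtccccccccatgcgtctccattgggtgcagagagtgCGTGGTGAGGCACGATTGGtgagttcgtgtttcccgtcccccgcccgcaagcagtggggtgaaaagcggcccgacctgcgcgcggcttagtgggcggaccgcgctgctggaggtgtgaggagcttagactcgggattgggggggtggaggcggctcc
Dnajc3: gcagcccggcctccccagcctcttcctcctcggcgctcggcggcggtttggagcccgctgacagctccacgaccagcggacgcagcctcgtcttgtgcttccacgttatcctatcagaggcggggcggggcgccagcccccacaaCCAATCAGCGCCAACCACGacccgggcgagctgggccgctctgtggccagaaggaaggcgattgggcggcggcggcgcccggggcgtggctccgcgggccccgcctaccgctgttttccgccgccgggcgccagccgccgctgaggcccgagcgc
Hspa5: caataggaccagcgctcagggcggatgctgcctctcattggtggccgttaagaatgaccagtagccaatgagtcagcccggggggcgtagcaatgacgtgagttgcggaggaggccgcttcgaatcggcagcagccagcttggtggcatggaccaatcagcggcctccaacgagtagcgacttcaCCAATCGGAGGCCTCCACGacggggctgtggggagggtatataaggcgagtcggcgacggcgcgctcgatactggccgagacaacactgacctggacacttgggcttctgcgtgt
A match is a description of the sequence and was not tied to the measured differences.

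Macrophage genes were the most depleted of the 22 gene lists in GFP-positive cells. Of 34 listed genes of macrophages and other leukocytes 32 are on the array and 26 were tested, and all 26 tested were lower in GFP-positive cells, with a median of -2.57. Probe sets entered the test if they were above the array median on at least 3 of 18 arrays, and the 3 unsorted arrays alone could satisfy this, so the count is a description. With no such filter 27 of 32 were lower, with a median of -2.49. Against GFP-negative cells 11 of the 26 were lower, with a median of -1.34.

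Csf1r, the receptor for the macrophage growth factor CSF1, read 1021, 744 and 1913 in GFP-positive cells, 6303, 3347 and 1640 in GFP-negative cells, and 13926, 7251 and 5232 in unsorted cultures (-2.80 ± 0.43, adjusted p = 0.00074). The unsorted culture had the highest level in every experiment, above both fractions sorted from it. Lyz2, lysozyme of macrophages and granulocytes, read 5588, 4922 and 18327 in GFP-positive cells, 36133, 24996 and 15027 in GFP-negative cells, and 45548, 40730 and 55578 in unsorted cultures (-2.55 ± 0.45, adjusted p = 0.00171). Again unsorted was highest throughout, and the GFP-positive array of Exp106 lay above the GFP-negative one.

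Cd53, a tetraspanin of leukocytes, read 70, 217 and 1822 in GFP-positive cells, 2099, 1427 and 1933 in GFP-negative cells, and 5054, 7022 and 5185 in unsorted cultures. Its difference of -3.99 ± 0.61 (adjusted p = 0.000683), or 15.8-fold, was the largest in the list. Adgre1 (the macrophage antigen F4/80), C1qb (a chain of complement C1q) and the inhibitory receptor Sirpa differed by -3.49, -3.39 and -3.50, all passing. Another tested probe set of C1qb differed by only -0.14. Apoe, the lipid carrier apolipoprotein E that macrophages make in quantity, read 4174, 2851 and 10306 in GFP-positive cells, 34904, 15097 and 4079 in GFP-negative cells, and 97084, 71899 and 28540 in unsorted cultures (-3.55 ± 0.70, adjusted p = 0.00306). Unsorted lay above both fractions in each experiment.

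The fall was smaller in Exp106. The median of the 26 genes was -3.41 and -3.14 in Exp100 and Exp105 and -1.18 in Exp106, and without Exp106 it was -3.43. The summed level of 6 macrophage markers ranged from 8179 to 31428 in GFP-positive samples, from 24459 to 56927 in GFP-negative ones and from 73893 to 89569 in unsorted ones. Ptprc (CD45) and Itgb2 lay below the array median on all GFP-positive arrays. The proteases Adam8 (-4.05 ± 1.06, adjusted p = 0.0149) and Mmp12 (-3.46 ± 0.75, adjusted p = 0.00536), both made by macrophages among other cells, had the same pattern, with 1610 and 8251 in GFP-positive cells of Exp106. Both lost their calls without Exp100 (adjusted p = 0.122 and 0.0799) and without Exp105 (adjusted p = 0.0932 and 0.0646). Plxnd1, a semaphorin receptor, differed by -3.84 ± 0.70, with 528 in GFP-positive cells of Exp106 and 48 and 148 in the others.

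Since unsorted levels often lay outside both sorted fractions, they were counted against both at once, as a description. Over all tested probe sets, unsorted lay above both fractions in all 3 experiments for 9.58% and below both for 12.1%. Among the 26 macrophage genes it lay above both for 21. Among 27 tested mesenchymal genes it did so for 1, and for bone matrix genes for 1 of 16. Among 27 tested genes of mitochondrial respiration it lay below both fractions for 14.

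**Figure D3:**
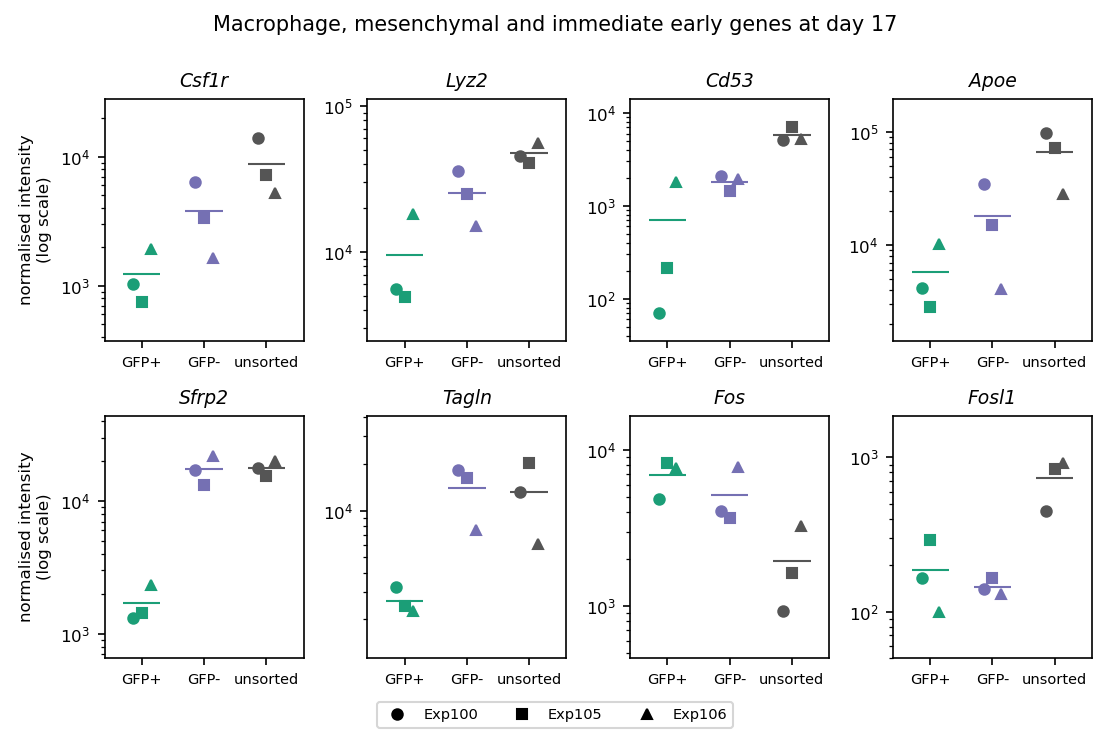
Normalised intensity on a log axis of 8 genes in GFP-positive, GFP-negative and unsorted samples of day 17, with 1 symbol per experiment and a line at the mean of 3. Csf1r, Lyz2, Cd53 and Apoe are highest in unsorted samples, Sfrp2 and Tagln are alike in GFP-negative and unsorted samples, and Fos is high and Fosl1 low in both sorted fractions.

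Genes of fibroblasts and mesenchymal progenitors were lower in GFP-positive cells too. Of 27 tested, 18 fell and 0 rose, beside 11.9% lower and 11.3% higher over all tested probe sets. The median of -1.16 was -1.33, -1.08 and -1.18 in the 3 experiments, so Exp106 lay between the others. Against GFP-negative cells 23 of the 27 fell, with a median of -1.21. Sfrp2, a secreted Wnt-binding protein, read 1311, 1424 and 2345 in GFP-positive cells, 17164, 13308 and 21836 in GFP-negative cells, and 17828, 15470 and 20115 in unsorted cultures (-3.41 ± 0.30, adjusted p = 1.88e-05), or 10.6-fold lower in GFP-positive cells. The unsorted and GFP-negative levels overlapped, and GFP-positive lay far below both. Cxcl12, the stromal chemokine, read 453, 289 and 865 in GFP-positive cells, 5692, 2907 and 6407 in GFP-negative cells, and 3243, 4591 and 4120 in unsorted cultures (-2.94 ± 0.26, adjusted p = 1.66e-05). Fbln2, a matrix protein of connective tissue, fell by 2.86 on the log2 scale, and Col3a1, the collagen of soft connective tissue, fell by 1.10. Sfrp1, a relative of Sfrp2, differed by -2.51 ± 0.28 and Mfap5, a microfibril protein, by -2.08 ± 0.26. Not every matrix gene followed: the small proteoglycans Dcn (0.05 ± 0.12) and Lum (-0.26 ± 0.14) did not pass.

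Signals that act on bone cells included rises and falls, the rises near the share of all tested probe sets (11.3% higher, 11.9% lower). In the list of Wnt and BMP signalling 4 of 31 tested genes rose and 8 fell, with a median of -0.19. Dkk1, a secreted inhibitor of Wnt receptors, rose by 1.67 ± 0.45 (adjusted p = 0.0167), with 3860, 4677 and 939 in GFP-positive cells, 392, 549 and 328 in GFP-negative cells, and 1066, 1053 and 429 in unsorted cultures. Ccn4, a matricellular Wnt target, rose by 1.21 ± 0.17 (adjusted p = 0.000317). Tob1, a restrainer of BMP signalling in mouse osteoblasts, and Bmpr1a, a BMP receptor, rose by 0.85 ± 0.17 and 0.79 ± 0.25. The falls were led by Ccn3, a matricellular protein, with 1162, 822 and 2880 in GFP-positive cells, 16664, 10542 and 14989 in GFP-negative cells, and 13169, 9652 and 9470 in unsorted cultures (-2.89 ± 0.28, adjusted p = 3.39e-05). Follistatin (Fst), which traps activins, and its relative Fstl1 differed by -2.44 and -1.89. The ligand Wnt5a (-1.78) and the Wnt receptors Fzd1 (-1.53), Fzd2 (-1.05) and Fzd4 (-1.03) fell as well. On the deposited scale 1 of the 31 rose and 13 fell, and without Exp100 or Exp105 2 rose and 7 fell.

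Genes of growth factor supply were lower in GFP-positive cells. Of 21 tested genes of retinoid, IGF and growth factor supply 9 fell and 0 rose. All tested probe sets had 11.9% lower and 11.3% higher. The list's median of -0.58 was -0.36 with no filter and -0.90 on the deposited scale. Igf2, insulin-like growth factor 2, read 9048, 8089 and 15063 in GFP-positive cells, 52259, 41899 and 56313 in GFP-negative cells, and 53868, 48210 and 80326 in unsorted cultures (-2.52 ± 0.14, adjusted p = 3.03e-07). Its binding protein Igfbp2 read 1393, 1078 and 1696 in GFP-positive cells, 11789, 10222 and 9040 in GFP-negative cells, and 9445, 7132 and 6069 in unsorted cultures (-2.41 ± 0.17, adjusted p = 1.78e-06). For both genes GFP-positive lay well below the other 6 arrays. The growth factor Fgf7 (-1.81) and the receptor Egfr (-1.37) fell too. Igfbp3 (-2.05 ± 0.44, adjusted p = 0.00527) lost its call without Exp100 (-1.28, adjusted p = 0.0778). The count of 9 became 4 without Exp100 and in the fit without the block.

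Contractile genes fell as well, 7 of 13 tested with a median of -0.68, beside 11.9% lower over all tested probe sets. Tagln, the smooth muscle protein transgelin, read 3223, 2437 and 2261 in GFP-positive cells, 18192, 16180 and 7546 in GFP-negative cells, and 13201, 20201 and 6069 in unsorted cultures (-2.16 ± 0.24, adjusted p = 9.05e-05). Acta2, smooth muscle actin, fell by 1.33 ± 0.20 (adjusted p = 0.00063) and Pdgfrb, the pericyte receptor for PDGF, by 1.99 ± 0.27 (adjusted p = 0.000277). Cnn1 (calponin, -1.63 ± 0.39, adjusted p = 0.00894) lost its call without Exp100 (adjusted p = 0.0835) and without Exp105 (adjusted p = 0.111). Myh11, the smooth muscle myosin, lay below the array median on all GFP-positive and all unsorted arrays.

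Genes of inflammation and of the interferon response were lower in GFP-positive cells. Of 15 tested cytokine and acute phase genes 10 fell and 1 rose, with a median of -1.53. All tested probe sets gave 11.9% lower and 11.3% higher. Ccl9, a chemokine made by myeloid cells, read 76, 309 and 1221 in GFP-positive cells, 3341, 1617 and 1413 in GFP-negative cells, and 3843, 4191 and 2831 in unsorted cultures (-3.33 ± 0.64, adjusted p = 0.00277). Icam1, an adhesion molecule, differed by -3.07 ± 0.42 and Ptx3, a soluble pattern receptor, by -2.26 ± 0.34. The 1 rise was Ptgs2, cyclooxygenase 2, with 410, 2316 and 566 in GFP-positive cells, 209, 484 and 387 in GFP-negative cells, and 151, 920 and 322 in unsorted cultures (1.11 ± 0.33, adjusted p = 0.0267). With no filter on low values the list's median over 23 genes was -0.31, with 10 lower and 1 higher. Without Exp105 5 fell and 0 rose, and without Exp100 7 fell and 0 rose. The rise of Ptgs2 was also lost on the deposited scale and with the common trimmed mean, each with 10 falls and 0 rises. The macrophage markers given above fell in the same samples, and their part in these lists was not tested.

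In the interferon list 13 of 22 tested genes fell, 0 rose, and the median was -0.88 (7 fell without Exp105). That count, too, stands beside 11.9% lower over all tested probe sets. Gbp2, a guanylate-binding protein, read 151, 162 and 160 in GFP-positive cells, 1199, 748 and 672 in GFP-negative cells, and 841, 944 and 991 in unsorted cultures (-2.33 ± 0.23, adjusted p = 4.35e-05). Exp106 did not stand out for this gene. Psmb8, an immunoproteasome subunit, fell by 1.67 ± 0.21, the class I antigen H2-D1 by 1.40 ± 0.16 and H2-K1 by 0.88 ± 0.14. Irf8, a transcription factor of myeloid cells, differed by -2.13 ± 0.58 (adjusted p = 0.0177), its GFP-positive array of Exp106 lay at 1190 within the unsorted range of 1062 to 1568, and it lost its call without Exp100 (-1.46, adjusted p = 0.192) and without Exp105 (-1.70, adjusted p = 0.148).

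Among 14 tested p53 targets and growth arrest genes 8 fell and 1 rose, with a median of -0.65. Shares over all tested probe sets were 11.9% lower and 11.3% higher. Without Exp100 5 of the list fell and 0 rose, and without Exp106 7 fell and 2 rose. The rise was Cdkn1a, the cell cycle inhibitor p21, with 5684, 4481 and 5181 in GFP-positive cells, 1725, 2227 and 2013 in GFP-negative cells, and 2437, 3488 and 3641 in unsorted cultures (0.69 ± 0.17, adjusted p = 0.0107). All 3 GFP-positive arrays lay above the 6 others. Gas6, a ligand of the TAM receptors, fell by 2.72 ± 0.26 and Gas1, a surface protein induced on growth arrest, by 1.68 ± 0.19 (adjusted p = 3.39e-05 and 9.4e-05). Perp, a desmosome-linked p53 target, differed by -1.98 ± 0.39 at low levels, reading 25, 43 and 22 in GFP-positive cells against 340, 336 and 73 in unsorted cultures.

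Respiratory genes rose together, 17 of 27 tested with 0 falls and a median of 0.56, beside 11.3% higher over all tested probe sets. Cox6a1, the widely expressed counterpart of Cox6a2, read 43866, 36659 and 36659 in GFP-positive cells, 25240, 25142 and 12913 in GFP-negative cells, and 23313, 28540 and 11240 in unsorted cultures (0.99 ± 0.18, adjusted p = 0.00208). Its probe set can share sequence with relatives. Cycs, cytochrome c, read 1328, 1817 and 621 in GFP-positive cells, 837, 1196 and 619 in GFP-negative cells, and 692, 465 and 268 in unsorted cultures (1.31 ± 0.24, adjusted p = 0.00213). For this gene both sorted fractions exceeded unsorted in each experiment. GFP-positive minus GFP-negative had a median of 0.21 in this list, with 3 higher and 0 lower. The count of 17 depended on the setting: it was 11 with no filter, 10 on the deposited scale, 6 without Exp100, 8 without Exp105 and 5 in the fit without the block, with 0 falls in each. Glycolysis showed 0 rises and 1 fall among 15 tested genes, beside 11.3% higher and 11.9% lower over all tested probe sets. The fall was Eno2 (-0.77 ± 0.23, adjusted p = 0.028, lost without Exp100 at 0.128 and without Exp105 at 0.268).

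Cell cycle genes differed little, with 2 rises and 0 falls among 36 tested and a median of -0.04. Both counts stand beside 11.3% higher and 11.9% lower over all tested probe sets. On the deposited scale 1 rose and 4 fell, with a median of -0.35. The 2 were Cdk1, the mitotic kinase (0.57 ± 0.15, adjusted p = 0.0171), and the histone variant gene H2az1 (0.61 ± 0.16, adjusted p = 0.0138). Cdk1 lost its call without Exp105 (adjusted p = 0.0921) or Exp106 (adjusted p = 0.0750), and H2az1 without Exp100 (adjusted p = 0.0891) or Exp106 (adjusted p = 0.0721). Top2a, a topoisomerase of dividing cells, read 1448, 1746 and 51 in GFP-positive cells, 1446, 2209 and 69 in GFP-negative cells, and 1127, 1187 and 294 in unsorted cultures (-0.36 ± 0.40, adjusted p = 0.571). It was low in all Exp106 arrays, and without them its difference was 0.45.

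Immediate early and heat shock genes, which can respond within minutes when cells are handled, went both ways. Of 34 tested, 5 rose and 8 fell, with a median of -0.08, beside 11.3% higher and 11.9% lower over all tested probe sets. On the deposited scale 1 rose and 12 fell, with a median of -0.36. Without Exp100, or without Exp105, 0 rose and 3 fell. Fos read 4859, 8285 and 7648 in GFP-positive cells, 4090, 3650 and 7783 in GFP-negative cells, and 928, 1636 and 3289 in unsorted cultures (1.96 ± 0.46, adjusted p = 0.00809). Both sorted fractions lay above every unsorted array, and the sorted fractions differed by 0.47 ± 0.46 (adjusted p = 0.566). Without Exp100 or Exp105 the call was lost (1.76 and 1.78, adjusted p = 0.0800 and 0.0662). The other rises were Klf4, Ier2, Gadd45b and Gadd45g, from 0.54 to 0.81. Jun (-0.58 ± 0.21), Egr1 (-0.48 ± 0.24) and Atf3 (-0.49 ± 0.27) did not pass, and on the deposited scale Jun (adjusted p = 0.0256) and Egr1 (adjusted p = 0.0448) passed as lower. The Atf3 probe set can share sequence with relatives, and another tested one went the other way (0.48). Fosl1, a Fos relative, read 165, 290 and 100 in GFP-positive cells, 141, 164 and 129 in GFP-negative cells, and 447, 839 and 927 in unsorted cultures (-1.86 ± 0.35, adjusted p = 0.00227). Sgk1, a kinase induced by serum and glucocorticoids, differed by -2.07 ± 0.33 (adjusted p = 0.000906) and Ccn2, a matricellular target of mechanical load, by -1.69 ± 0.36 (adjusted p = 0.00496). The remaining falls were Gadd45a, Egr2, Hspa1b, Myc and Klf6. Klf4, a zinc finger transcription factor, read 7601, 6213 and 5028 in GFP-positive cells, 1356, 1961 and 2696 in GFP-negative cells, and 3356, 4508 and 2905 in unsorted cultures (0.81 ± 0.25, adjusted p = 0.0346). GFP-negative cells lay below the unsorted culture in each experiment, whereas for Fos they lay above it. Whether handling plays a part in these values was not tested.

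Genes linked to osteocyte processes and neural adhesion gave 2 rises and 2 falls among 16 tested, near the 11.3% higher and 11.9% lower over all tested probe sets. Ackr3, a scavenging receptor for Cxcl12, read 2912, 6834 and 2884 in GFP-positive cells, 216, 474 and 364 in GFP-negative cells, and 915, 3571 and 959 in unsorted cultures (1.37 ± 0.28, adjusted p = 0.00403). Unsorted lay between the fractions in each experiment, and the call was lost without Exp100 (1.24, adjusted p = 0.0550). Cd200, an immune-restraining surface protein, rose by 0.98 ± 0.27 (adjusted p = 0.0175). Without Exp100 the list had 0 rises and 2 falls, so Cd200 lost its call too. The semaphorin receptors Plxna2 (-2.34 ± 0.29) and Nrp1 (-1.83 ± 0.29) fell. The median of 0.16 turned to -0.24 on the deposited scale.

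Markers of other lineages were scarce or moved singly, and the counts of these small lists stand beside 11.3% higher and 11.9% lower over all tested probe sets. Of 11 endothelial genes on the array 1 was tested, Eng (endoglin, -0.70 ± 0.21, adjusted p = 0.0255), which mesenchymal cells also make and which was not called without any 1 of the 3 experiments (adjusted p from 0.0842 to 0.115). Adipocyte genes fell in 4 of 7 cases, Apoe, Lpl, Plin2 and Cebpa, while the defining markers Adipoq, Fabp4 and Pparg lay below the array median on all GFP-positive arrays. Without Exp100, 2 of the 7 fell. Plin2 (-1.15 ± 0.37, adjusted p = 0.0383) lost its call without Exp100 or Exp105 (adjusted p = 0.169 in both). Osteoclast genes fell in 2 of 5 cases, Tcirg1 (-1.47 ± 0.28), a proton pump subunit that macrophages share, and Acp5 (-0.90 ± 0.28, adjusted p = 0.0356), the tartrate-resistant phosphatase. Acp5 lost its call without Exp100 (adjusted p = 0.162) or Exp106 (-0.45, adjusted p = 0.254), and its pair of Exp105 differed by 0.03. The other 3 osteoclast genes did not pass, and 1 of the 5 lay above 0. The summed level of the osteoclast markers Acp5, Ctsk, Mmp9 and Calcr was not lower. It ranged from 12236 to 16993 in GFP-positive samples and from 9179 to 15770 in unsorted ones. Nerve and glial genes had 1 fall among 6, Pmp22 (-1.59 ± 0.24).

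Cartilage genes gave 1 rise and 2 falls among 8 tested, beside 11.3% higher and 11.9% lower over all tested probe sets. Col2a1, Acan and Matn1 lay below the array median on all 6 arrays. Col11a2, a fibrillar collagen chain of cartilage and bone, read 8827, 5501 and 5336 in GFP-positive cells, 141, 915 and 332 in GFP-negative cells, and 2504, 3858 and 1490 in unsorted cultures (1.38 ± 0.43, adjusted p = 0.0358). GFP-positive lay above all other arrays, and the call was lost without Exp100 (adjusted p = 0.0888) or Exp106 (adjusted p = 0.149). The matrix proteins Matn4 (-2.62 ± 0.22) and Fmod (-1.56 ± 0.20) fell. Skeletal muscle genes gave 3 rises and 1 fall among 13. The rises, of the muscle regulator Myog and the troponins Tnni1 and Tnnt1, were at adjusted p from 0.0273 to 0.0452, and on the deposited scale, or without Exp100 or Exp105, 0 passed as higher.

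**Figure D4:**
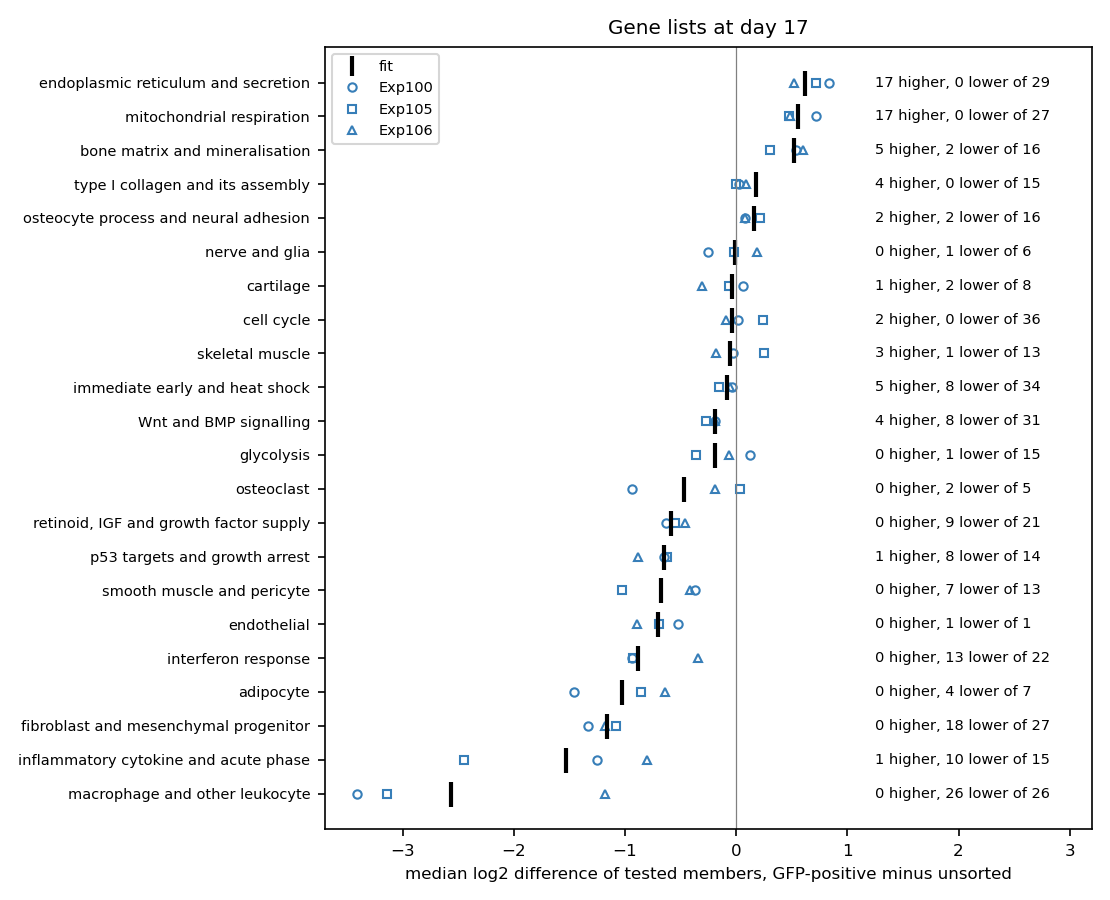
Median log2 difference, GFP-positive minus unsorted, of the tested members of each of 22 gene lists, from the fit (black bars) and within each experiment (open symbols), with the counts of members that passed at the right. Macrophage genes are lowest at -2.57 with Exp106 nearest to 0, and secretion and respiration genes are highest at 0.61 and 0.56.

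The same comparison on day 7 was set against that on day 17. The change of the difference, day 17 minus day 7, passed for 272 probe sets (3.65%), 97 higher (1.30%) and 175 lower (2.35%). The count was 43 without Exp99, 174 without Exp101, 77 without Exp103, 84 without Exp100, 102 without Exp105 and 603 without Exp106.

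Rhoj, a small GTPase of the Cdc42 family, had the largest negative change. GFP-positive minus unsorted was -3.04, -3.19 and -3.31 in the day 17 experiments and 0.48, 0.09 and 0.25 in those of day 7 (change -3.45 ± 0.25, adjusted p = 1.28e-05). Day 17 and day 7 values did not overlap. Sfrp2 was -3.73, -3.41 and -3.08 on day 17 and -0.20, -1.07 and 0.50 on day 7 (change -3.15 ± 0.43, adjusted p = 0.00194). Il4ra, a receptor chain for interleukins 4 and 13, changed by -3.12, the syntaxin Stx3 by -3.17 and the cytochrome P450 Cyp1b1 by -3.11, with day 7 differences between -0.53 and 0.57. Of these, Stx3 and Cyp1b1 were not called in 4 of the 6 fits that left out 1 experiment.

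In the other direction, Cpe was 1.23, 1.16 and 2.63 on day 17 and -0.85, -2.08 and -1.01 on day 7, so it was higher in GFP-positive cells on day 17 and lower on day 7 (change 2.98 ± 0.42, adjusted p = 0.00194). Tent5c, a poly(A) polymerase, had 2.05, 0.76 and 0.74 on day 17 and -0.60, -2.34 and -1.98 on day 7 (change 2.82 ± 0.62, adjusted p = 0.0264). Its call for this change was lost in 5 of the 6 fits that left out 1 experiment. The day 17 difference of Tent5c by itself did not pass (1.19 ± 0.44, limma adjusted p = 0.0687). Its day 7 levels were low, with a mean of 49 in GFP-positive cells and 202 in unsorted cultures. St3gal5, Fabp3 and Cox6a2 changed by 2.96, 2.84 and 2.58, with day 7 differences between -0.25 and 0.69. St3gal5 was not called in 4 of those 6 fits. Macrophage genes gave 0 calls for this change in either direction among 26 tested, fibroblast genes 8 lower among 27, and secretion genes 5 higher among 29.

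**Figure D5:**
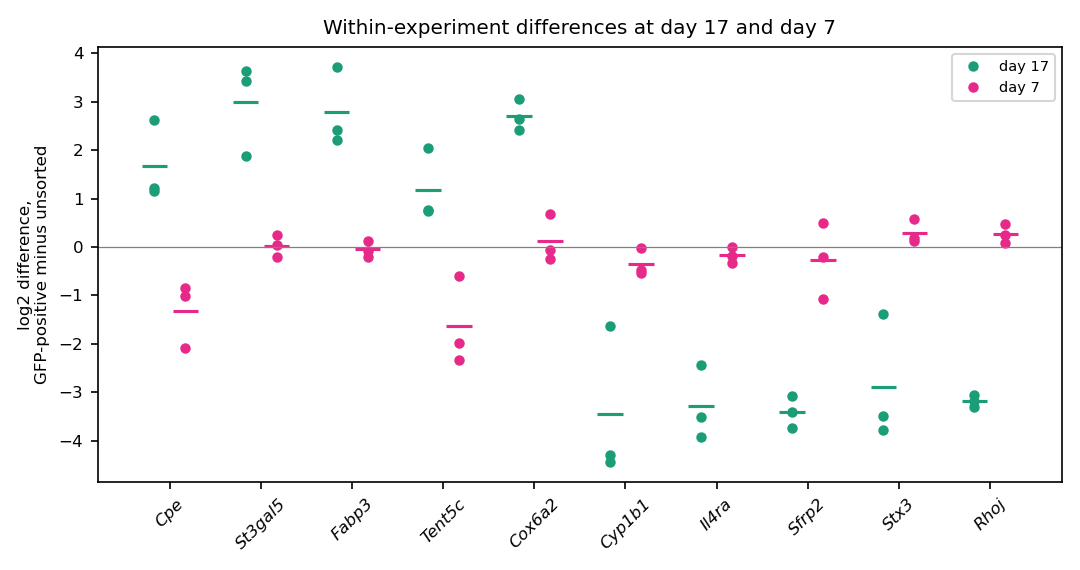
Log2 difference, GFP-positive minus unsorted, within each experiment of day 17 (green) and day 7 (pink), with a line at the mean of 3, for the 5 genes with the largest positive and the 5 with the largest negative change that passed. Day 7 values lie between -1.07 and 0.69 for 8 of the genes, while Cpe and Tent5c are below 0 on day 7 and above 0 on day 17.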

How the data were processed

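RNA (10 µg per array, per the labels) of sorted and unsorted calvarial cultures was hybridised to 1-colour Affymetrix arrays. The deposited values are probe set intensities on a linear scale, from 10 to 292811. The labels, read here as the only source, do not give the method of summarising and scaling the probes. The series has 18 arrays of type A, 13 of type B and 13 of type C, and only type A was analysed. 0 control probe sets are listed.

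Intensities were quantile normalised, 32 was added, and a linear model was fitted to the log2 values by limma 3.58.1 (R 4.3.3, statmod 1.5.0) over all 18 arrays with the experiment as a block and a variance trend. The added 32 makes fold changes of low genes too small. Probe sets above the array median on at least 3 arrays were tested (7455), and p-values were two-sided and adjusted by Benjamini-Hochberg over all of them. The number of arrays limits the precision, with 8 residual degrees of freedom. The fit was tested on simulated data. Experiment names in the titles pair the samples, and deviations of same-named GFP-positive and unsorted arrays correlated at 0.575, 0.560 and 0.725. Exp100 and Exp105 were nearly as alike across names (0.503 and 0.508), and Exp106 stood apart from both (-0.637 to -0.606).

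Genes were named through the platform annotation: 10833 probe sets have 1 gene, 396 several and 1193 none, and the brightest probe set stood for a gene. The text names the 10 largest rises and falls whose 3 pairs share a sign, the 3 largest changes that passed in each gene list, a fixed set of genes, and the 5 largest changes each way between the days. Other members named are examples chosen after their values were seen. The comparison and the lists were chosen with earlier results of these data known. Lists are described by counts and medians, with no set test. Alternatives changed the block, the pseudocount, the filter, the normalisation, the arrays fitted, the variance trend, the threshold and the experiments included.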

Additional observations from a re-analysis of the deposited data

Results flagged for a closer look

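Limma's test of the change itself passed (adjusted p under 0.05) for 38 of the 86 named genes tested. For these, the GFP-positive minus unsorted difference on day 17 differed from that on day 7. Over all tested probe sets 272 of 7455 (3.65%) passed. Named genes were mostly picked by their day 17 difference, and some by this very test. The count of 38 is therefore a description, and its share cannot be compared with that of all probe sets. Day, transgene and medium additions change together, so no single one of them can be named. Positive changes, day 17 minus day 7 on the log2 scale, were found for Cpe (2.98), St3gal5 (2.96), Fabp3 (2.84), Tent5c (2.82), Cox6a2 (2.58), Cd24a (2.40), Cdo1 (2.11), Avil (1.99), Myog (1.97), Cd1d1 (1.80), Tnni1 (1.62), Sec13 (1.33), P4ha1 (1.28) and Ppib (0.72).

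Negative changes among mesenchymal, matrix and contractile genes were those of Sfrp2 (-3.15), Ccn3 (-2.95), Cxcl12 (-2.60), Tagln (-2.46), Fbln2 (-2.38), Fst (-2.05), Matn4 (-1.67), Fstl1 (-1.61) and Acta2 (-1.16). Among growth factor and growth arrest genes they were those of Gas6 (-2.63), Igf2 (-2.30), Igfbp2 (-1.92) and Gas1 (-1.57). Interferon and inflammation genes in this direction were Gbp2 (-2.60), Icam1 (-2.47), Ptx3 (-1.91) and Psmb8 (-1.74). The others were Rhoj (-3.45), Stx3 (-3.17), Il4ra (-3.12), Cyp1b1 (-3.11), Sgk1 (-2.06), Plxna2 (-1.94) and Pmp22 (-1.37).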

How the results depend on the processing

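Of 76 named genes that passed for GFP-positive minus unsorted, 46 passed under every alternative in which they were tested. Another 30 lost their call under at least 1, and 0 changed sign. Some of the 46 were tested in fewer alternatives than the 16 of Sfrp2, among them St3gal5 (15) and Plxna2 (14). The fit with no replicate block (experiment names not used for pairing) called 567 probe sets against 1724 with it, 342 against 969 for GFP-positive minus GFP-negative, and 28 against 272 for the change between days. With only the 2 groups compared, paired, 706 and 285 were called, and with only the 9 day 17 arrays 596 were called for GFP-positive minus GFP-negative. Requiring a change of at least 2-fold left 761 and 523. On the deposited scale the change between days gave 146 calls, and GFP-positive minus GFP-negative split into 194 higher and 653 lower, against 405 and 564 after quantile normalisation. Leaving out 1 experiment gave from 766 (without Exp100) to 1788 calls (without Exp106) for GFP-positive minus unsorted, day 17. It gave from 430 to 1139 for GFP-positive minus GFP-negative, day 17, and from 43 (without Exp99) to 603 (without Exp106) for the change between days. Genes that did not pass and changed sign were Alpl (-0.063 on the deposited scale, from -0.11 to 0.39 with 1 experiment left out), Top2a (from -0.81 to 0.45), and, with a common trimmed mean, Col1a1 (0.12) and Col1a2 (0.25). The smaller fits also hold fewer arrays, and the cause of these changes was not tested. Genes below the array median have little signal over background, and their differences are the least precise.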
